A study of Mus musculus with 32 samples.

Results

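Interferon-induced GTPases of the guanylate-binding protein (GBP) and immunity-related GTPase (IRG) families were followed through adipogenic differentiation of mouse cells with and without knockdown of Zbtb9. The group holds the 6 GBP genes Gbp2, Gbp3, Gbp5, Gbp6, Gbp7 and Gbp9 and the 4 IRG genes Igtp, Irgm1, Irgm2 and Iigp1. They were chosen by gene symbol and are 10 of the 20560 genes of the deposited table. The 32 RNA-seq libraries came from 3T3-L1, an established mouse preadipocyte line that forms fat-storing cells when given hormones. At each of days 0, 3, 7 and 11 there were 4 libraries of cells with a scramble control short hairpin RNA (shRNA), 2 with Zbtb9 shRNA 1 and 2 with Zbtb9 shRNA 2. All 3 groups received the same course: dexamethasone, isobutylmethylxanthine and insulin from day 0, insulin alone from day 3, and no addition from day 7. The labels name no added interferon and do not say how the shRNAs were delivered. They call the replicates biological without saying whether these were separate cultures or separately made cell pools, so the p-values measure only the spread between these libraries, which may be technical in part.

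Interferons bind receptors that act through Janus kinases. Type I interferon leads to a complex that holds Stat2 and Irf9 and binds interferon-stimulated response elements (ISRE), while gamma-activated sites (GAS) serve the response to interferon gamma. GBPs are large GTPases that assemble on the membranes of bacteria and of vacuoles holding parasites, and Gbp5 is also known for promoting inflammasome assembly. Among IRG proteins, Iigp1 is an effector that loads onto such vacuoles, while Irgm1, Irgm2 and Igtp are regulatory members that sit on the cell's own membranes and keep the effectors inactive. Igtp is known from the endoplasmic reticulum and from lipid droplets, the organelle that fills fat cells.

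A value called normalized reads below is the number of reads rebuilt from the deposited log2 values, divided by the library's size factor. A log2 difference is taken between group means of the deposited log2 values, and "called" means an adjusted p under 0.05 in limma, with the adjustment made over all tested genes. Libraries held from 22280317 to 31073709 reads in genes, and only at day 11 did control (26486030 to 31073709) and knockdown (22839407 to 25511798) not overlap in depth. Zbtb9 itself had few reads: controls had 6.35 to 22.3 normalized reads, shRNA 1 libraries 0 to 19.3 and shRNA 2 libraries 2.13 to 10.5. Zbtb9 was called lower in the pooled knockdown at day 7 (-0.35), was not called at day 0 or 11, and fell under the filter on low values at day 3. The day 11 library labelled shRNA 1 replicate 2 had 19.3 normalized reads, within the range of its controls. At day 3, shRNA 1 replicate 2 (7.41) and shRNA 2 replicate 1 (8.99) also lay within the range of their controls (6.35 to 12.6). Of 7 preadipocyte and fibroblast markers, 6 had at least 1100 normalized reads in all libraries, and Cd34 had 0 to 19.2. Of 12 leukocyte markers 8 had a row: Ptprc (0 to 3.04), Itgam (0 to 7.95), Aif1 (2.12 to 33.4) and Csf1r (1.06 to 43.1) were low, and Cd74 (8.78 to 148), Lyz2 (2.00 to 173), Cd68 (8.35 to 575) and Cd14 (259.8 to 709) were higher. The 5 endothelial markers summed to at most 48.7.

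Promoter sequence is shown because all 10 members were called lower together at day 7, as described below. RefSeq windows (GRCm38.p6, 250 bases before to 50 after the start) were read by symbol for 7 of the 10 members, and Gbp6, Gbp9 and Iigp1 are named only. The ISRE core was searched on both strands as GAAA, any 2 bases, GAAA (TTTC, any 2 bases, TTTC on the other strand), and the GAS as TTCNNNGAA, which reads the same on both strands. No ISRE match overlapped a GAS match. In the stretches below, 5′ to 3′ on the gene's strand, capitals mark these motifs.
Gbp2: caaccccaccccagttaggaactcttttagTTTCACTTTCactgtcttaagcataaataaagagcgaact
Gbp3: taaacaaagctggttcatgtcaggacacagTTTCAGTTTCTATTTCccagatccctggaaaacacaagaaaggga
Gbp5: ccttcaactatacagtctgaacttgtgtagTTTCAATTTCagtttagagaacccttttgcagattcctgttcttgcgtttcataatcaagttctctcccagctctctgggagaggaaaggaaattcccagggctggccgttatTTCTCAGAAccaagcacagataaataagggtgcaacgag
Gbp7: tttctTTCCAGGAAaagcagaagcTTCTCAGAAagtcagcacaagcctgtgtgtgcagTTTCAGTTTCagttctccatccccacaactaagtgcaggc
Igtp: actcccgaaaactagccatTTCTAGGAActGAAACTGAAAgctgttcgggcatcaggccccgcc
Irgm1: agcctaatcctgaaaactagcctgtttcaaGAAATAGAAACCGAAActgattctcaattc
Irgm2: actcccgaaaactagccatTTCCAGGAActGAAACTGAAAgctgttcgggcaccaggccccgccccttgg

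These are chr3:142620574-142620643, chr3:142559969-142560043, chr3:142496739-142496920, chr3:142530225-142530322, chr11:58199492-58199555, chr11:48871421-48871480 (minus strand) and chr11:58214883-58214952. The 7 members had 8 windows, of which 7 had at least 1 ISRE core match, whereas 3.44% of all 32851 RefSeq windows of the same length had one. The window without an ISRE core or GAS match belongs to the second of 2 RefSeq starts of Gbp3, and each of these 7 members had 1 window with an ISRE core match. The match began 59 bases before the start in Gbp2, 53 in Gbp7, 64 in Irgm2, 34 in Igtp and 165 in Gbp5. Gbp3 (45 and 39 bases) and Irgm1 (30 and 24 bases) each had 2 overlapping matches. GAS letters occurred in the windows of Gbp5, Gbp7, Igtp and Irgm2, and in 8.3% of all windows. One of the 2 GAS matches of Gbp5, 245 bases before the start, lies outside the printed stretch. The stretches of Igtp and Irgm2 were identical at 62 of the first 64 bases. Distances are from the RefSeq starts, which for Gbp2, Gbp3, Gbp5, Irgm1 and Irgm2 lie inside the GENCODE gene. A match of letters describes the sequence and shows neither binding nor a cause.

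**Figure D1:**
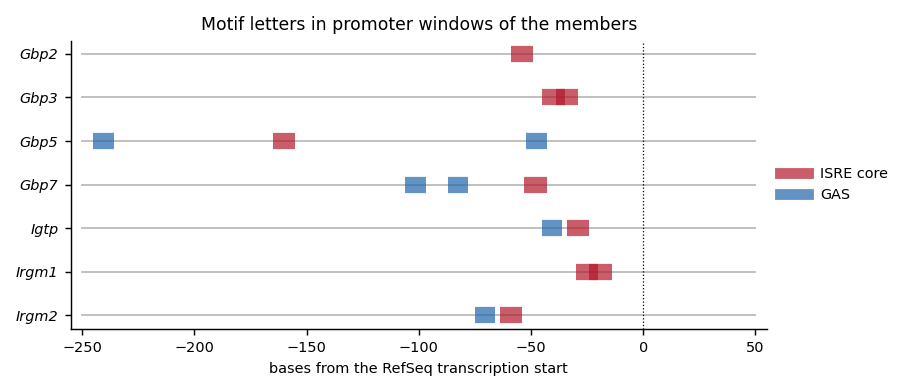
Positions of ISRE core letters (red) and GAS letters (blue) in RefSeq promoter windows of 7 members, in bases from the transcription start (dotted line). Darker red marks overlapping matches. A second Gbp3 window, which holds neither motif, is not drawn. The 7 windows drawn hold ISRE core letters, which begin 165 to 24 bases before the start, and 4 hold GAS letters.

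The 10 genes lie on 4 chromosomes of the GRCm38 assembly (GENCODE M21), all protein-coding. On chromosome 3, on the plus strand, are Gbp5 (ENSMUSG00000105504, 142493978 to 142522344), Gbp7 (ENSMUSG00000040253, 142530342 to 142550149), Gbp3 (ENSMUSG00000028268, 142560026 to 142573209) and Gbp2 (ENSMUSG00000028270, 142620602 to 142638008). On chromosome 5, on the minus strand, are Gbp9 (ENSMUSG00000029298, 105077630 to 105139539) and Gbp6 (ENSMUSG00000104713, 105270702 to 105293698). Chromosome 11 holds Irgm1 (ENSMUSG00000046879, 48861968 to 48871683, minus strand) and, on the plus strand, Igtp (ENSMUSG00000078853, 58199556 to 58207591) and Irgm2 (ENSMUSG00000069874, 58199618 to 58222782), while Iigp1 lies on chromosome 18 (ENSMUSG00000054072, 60376027 to 60392634, plus strand). Some reads cannot be assigned with certainty. Gbp6 shares 29.0% of its exon bases with Gm43302 and has 1380 bases at 98.5% identity with Gbp10. Gbp9 is 91.6% to 94.5% identical to its chromosome 5 neighbours over up to 1276 bases, 11.3% of Gbp7 exon bases are also annotated as the pseudogene Gm43802, and Igtp and Irgm2 share 162 exon bases. How the authors' counting split such reads is not given in the sources used here.

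In control cells 9 of the 10 genes fell at day 3, all 10 rose again by day 7, and all 10 rose further to day 11. Per kilobase of exon, the level of Gbp2 was highest at day 0 (541 ± 44.8 normalized reads per kb, SD, n = 4), and that of Gbp5 was lowest (2.69 ± 1.04). Between them stood Igtp, Gbp3, Irgm2 and Irgm1 (441, 440.2, 425 and 387 per kb), and in these first 5 genes each overlapped with its neighbour in the order. Gbp7 (255) was clear of both its neighbours, Irgm1 and Gbp9. Gbp9 and Iigp1 (90.4 and 83.1 per kb) overlapped with each other, and Iigp1 with Gbp6, next in the order. By day 11 the order was Gbp2 (661), Igtp (626), Gbp3 (548), Irgm2 (537), Irgm1 (398), Gbp7 (315), Gbp6 (266), Iigp1 (263), Gbp9 (157) and Gbp5 (30.7). At day 11 Gbp2 overlapped with Igtp, Igtp with Gbp3, Gbp3 with Irgm2, and Gbp6 with Iigp1, and no other neighbours in the order did. Lengths are of all annotated exons, shared bases included.

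**Figure D2:**
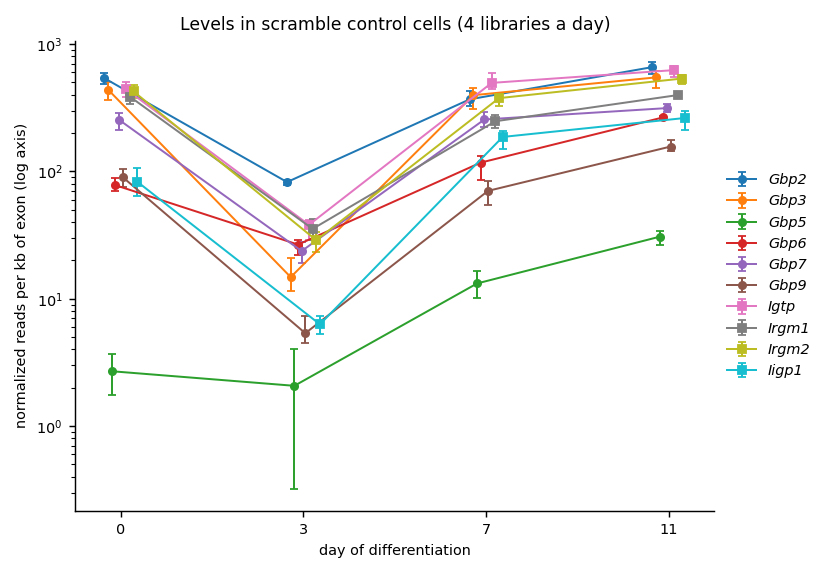
Level of each member in scramble control cells by day, in normalized reads per kb of exon on a log axis. Points are means of 4 libraries, bars run from the lowest to the highest library, circles are GBP and squares IRG genes. The lines of 9 genes dip steeply at day 3 and that of Gbp5 only from 2.69 to 2.07, and all 10 rise by day 7.

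From day 0 to day 3, 9 of the 10 members were called lower in control cells, against 38.2% of all genes tested, with a median log2 difference of -3.13 against 0.00 over all genes. Gbp3 had the largest fall. It had 1643, 1280.1, 1191 and 1635 normalized reads at day 0 and 68.4, 49.7, 37.7 and 37.2 at day 3, a difference of -4.27 ± 0.16 (SE, adjusted p = 6.32e-12). Gbp6 fell least among the 9, from 531, 436, 418 and 473 to 171, 158, 132 and 173 (-1.40 ± 0.11, SE). All day 3 libraries lay below all day 0 libraries in each of the 9 genes, which held for 35.5% of all genes. Gbp5, which was low at both times, had 24.4, 23.3, 12.2 and 11.6 at day 0 and 11.6, 2.12, 14.7 and 26.6 at day 3, overlapping (-0.17 ± 0.17, SE, adjusted p = 0.353).

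From day 3 to day 7 all 10 members were called higher in control cells, against 37.6% of all genes, with a median of 3.03 against 0.01 over all genes. The largest rises were those of Iigp1 (4.14) and Gbp3 (4.13). The rise of Gbp5 was 1.65 on the deposited log2 scale, the smallest there, but 6.37-fold in mean normalized reads, more than those of Gbp2 (4.47-fold) and Gbp6 (4.41-fold). All 10 were called higher again from day 7 to day 11, against 28.9% of all genes, by 0.29 (Gbp7) to 1.14 (Gbp6) on the deposited log2 scale. In mean normalized reads Gbp5 rose most (2.33-fold, against 2.27-fold for Gbp6). The count of 10 was 8 to 10 with 1 library left out and 9 with the replicate number as a block. Gbp7 was near the threshold (adjusted p = 0.041 in limma), and the Igtp libraries of the 2 days overlapped. Compared with day 0, 8 members were called higher at day 11, against 33% of all genes. Gbp5 stood furthest above its starting level (2.46), at 206, 224, 210.0 and 176 normalized reads, then Gbp6 (1.67) and the effector Iigp1 (1.58). Gbp3 (0.31, adjusted p = 0.11) and Irgm1 (0.05, adjusted p = 0.682) were not called. At day 7 against day 0, 3 members (Gbp5, Gbp6 and Iigp1) were called higher and 3 (Gbp2, Gbp9 and Irgm1) lower, which is near the share of all genes called in each direction, 33.3% and 35.8%. In bulk RNA, fewer cells making a transcript and less of it per cell cannot be told apart. Over the same days the 8 adipocyte markers summed to 19720 to 20320 normalized reads in control cells at day 0, 25400 to 30590 at day 3, 47470 to 51560 at day 7 and 54960 to 64900 at day 11. Lpl, with at least 15510 in every library, made up most of the day 0 sum, whereas Adipoq, Plin1, Cfd and Cidec reached 0. The preadipocyte and fibroblast markers summed to 362300 to 378000, 141000 to 158700, 254700 to 279400 and 302300 to 347400 on these days, and the leukocyte markers to 890.2 to 982.6, 692.2 to 770.7, 539.3 to 573.9 and 814.4 to 960.5. Their part in the course of the GTPases was not tested.

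The study compared knockdown with control cells at each time point, and here both shRNAs were first pooled and set against scramble control on each day. The GTPases were lower with knockdown at day 7 without exception, and few were called on other days. At day 7 all 10 were called lower, against 22.6% of all genes tested. In all 10 every knockdown library lay below every control library, which held for 20.9% of all genes. The median log2 difference was -1.26, against 0.01 over all genes, and single differences ran from -0.81 (Gbp6) to -1.67 (Iigp1) on that scale.

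Among the GBPs at day 7, Gbp3 had 1481, 1013, 1426 and 1269 normalized reads in control, 362 and 353 with shRNA 1 and 481 and 499 with shRNA 2, and its pooled difference was -1.53 ± 0.13 (SE, adjusted p = 3.07e-06). Gbp9 had 379.8, 281, 437 and 358 in control, 122 and 94.0 with shRNA 1 and 117 and 66.2 with shRNA 2 (-1.64 ± 0.16, SE, adjusted p = 1.47e-06). In these genes the knockdown mean was 32.7% and 27.4% of the control mean in normalized reads. Gbp2 kept 52.6% of its control level, with 981, 818, 1070.1 and 842 in control, 533 and 517 with shRNA 1 and 494 and 409 with shRNA 2. Gbp7 had 1636, 1308, 1559.5 and 1246 in control against 632 and 579 and 666 and 644 with the 2 shRNAs, and Gbp6 stood at 54.0% of control. Gbp5, the inflammasome-linked member, had 87.6, 66.9, 109 and 86.6 in control, 47.7 and 26.7 with shRNA 1 and 24.1 and 25.3 with shRNA 2. One shRNA 1 library thus stood nearest to the controls while the other 3 knockdown libraries were close together.

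Among the IRGs at day 7, the effector Iigp1 had 1091, 867, 1216 and 1173 normalized reads in control, 335 and 309 with shRNA 1 and 350.4 and 260.1 with shRNA 2 (-1.67 ± 0.11, SE, adjusted p = 1.49e-08). The regulatory Irgm1 had 1485, 1264, 1626 and 1388 in control, 427 and 372 with shRNA 1 and 650.4 and 615 with shRNA 2 (-1.43 ± 0.17, SE, adjusted p = 0.000107). Igtp had 949, 899, 1198 and 969 in control, 346 and 332 with shRNA 1 and 496 and 518 with shRNA 2. Igtp, Irgm1 and Irgm2 stood at 42.2%, 35.8% and 38.4% of their control means. In Irgm1, Igtp and Irgm2 the shRNA 1 libraries were the lowest and the shRNA 2 libraries lay between them and control, while in Iigp1 the shRNAs overlapped. At the same time point the 8 adipocyte markers, all called higher, summed to 129700 to 200700 normalized reads in knockdown and 47470 to 51560 in control, the preadipocyte markers to 200100 to 231600 and 254700 to 279400, and the leukocyte markers to 379.5 to 530.8 and 539.3 to 573.9. Their part in the lower GTPase values was not tested. All 10 calls held in each of the 8 fits that left out 1 library.

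**Figure D3:**
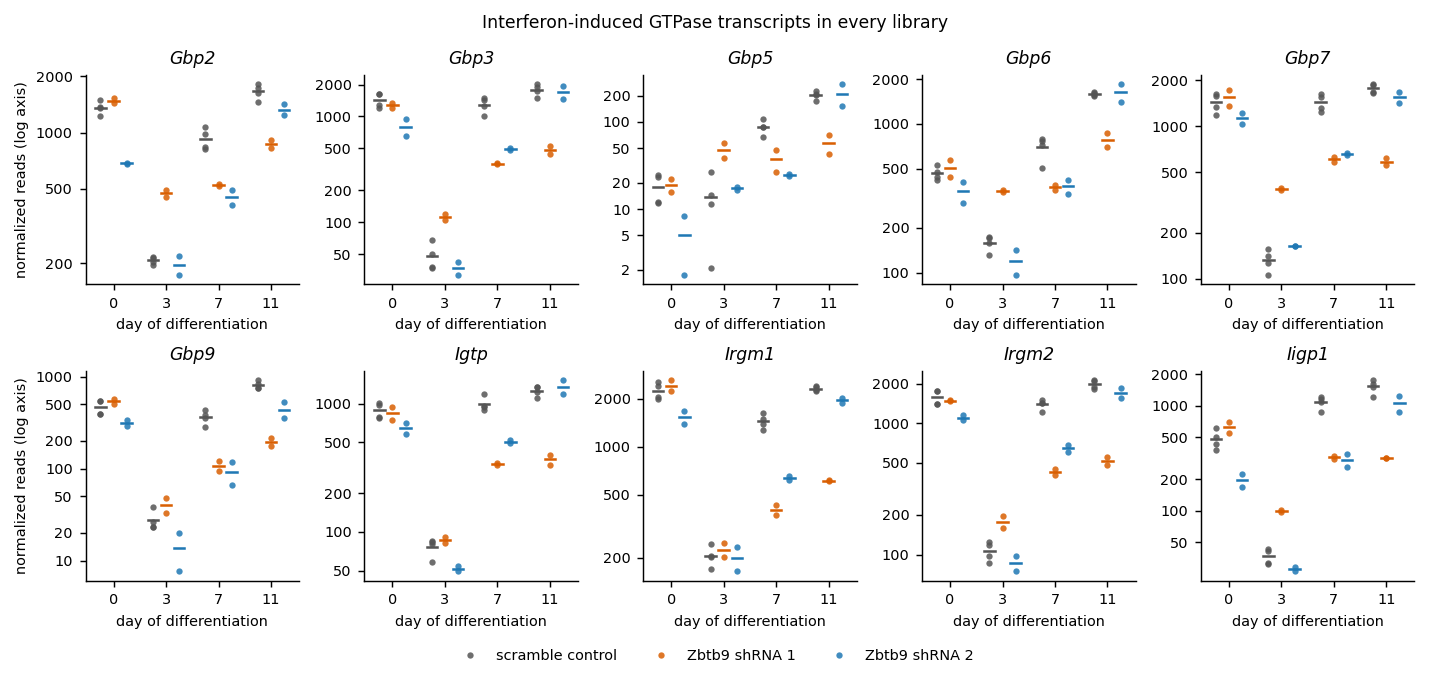
Normalized reads of each member in all 32 libraries by day (log axes, each panel with its own range). Dots are libraries and short lines group means: 4 scramble control, 2 shRNA 1 and 2 shRNA 2 libraries a day. At day 7 both shRNAs lie below control in all 10 panels, and at day 11 the shRNA 1 libraries lie below those of shRNA 2 in all 10.

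On the other days the pooled comparison called few members. At day 11, Gbp2 (-0.59 ± 0.16, SE, adjusted p = 0.0185) and Gbp9 (-1.35 ± 0.29, SE, adjusted p = 0.00952) were called lower, 2 of 10 against 16.2% of all genes, although the median difference was -0.88 against -0.01 over all genes. The standard errors at day 11 were 0.16 to 0.49, wider than the 0.08 to 0.17 at day 7, and the 2 shRNAs stood apart. The call count was 7 without shRNA 2 replicate 1, 1 without shRNA 1 replicate 1 or control replicate 2, 7 in 1 fit of all 32 libraries, 10 when the shRNAs formed separate groups and 0 with the replicate number as a block. At day 0 no member was called in limma, against 3.25% of all genes, with 1 (Gbp3) at an unadjusted p under 0.05 and 0 with voom on rebuilt reads. At day 3 none was called either, against 26.7% of all genes, with 1 (Gbp7) at an unadjusted p under 0.05 and 0 with voom. Gbp7 was called higher at day 3 without shRNA 2 replicate 1 or 2 (1 member each), and 6 members were called higher when the shRNAs formed separate groups. The shares of all genes in this paragraph are those of the main fits and do not apply to the counts from alternative fits.

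Whether the knockdown difference changed between days was tested as an interaction. From day 3 to day 7 a move down was called in 9 of 10 members, against 10.2% of all genes, by -1.15 (Gbp6) to -2.07 (Iigp1). Igtp moved by -1.05 without being called (adjusted p = 0.0709). With voom on rebuilt reads 3 members were called. From day 0 to day 3 none was called in limma, against 6.57% of all genes, with 2 (Gbp2 and Gbp7) at an unadjusted p under 0.05 and 0 with voom. The count was 1 without day 3 shRNA 2 replicate 2. From day 7 to day 11 none was called, against 12.7% of all genes, with 0 at an unadjusted p under 0.05 and 0 with voom.

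The pooled arm joined 2 shRNAs whose libraries differed in these genes, and each was set against control and against the other in a fit of 3 groups a day. At day 0, 5 members were called lower with shRNA 2 (10.2% of all genes) and none with shRNA 1 (34.7% in either direction). At day 3 most were called higher with shRNA 1, against 20.6% of all genes. At day 7 all were called lower with both shRNAs, against 24.3% (shRNA 1) and 22% (shRNA 2) of all genes. At day 11 all were called lower with shRNA 1 and 5 with shRNA 2, against 22.2% and 19.4% of all genes. Between the shRNAs, 7, 9, 4 and 10 members were called at days 0, 3, 7 and 11, against 16.4%, 8.94%, 7.52% and 11.6% of all genes in the same direction. All those at days 0 and 3 were lower with shRNA 2 than with shRNA 1, and all those at days 7 and 11 were higher.

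**Figure D4:**
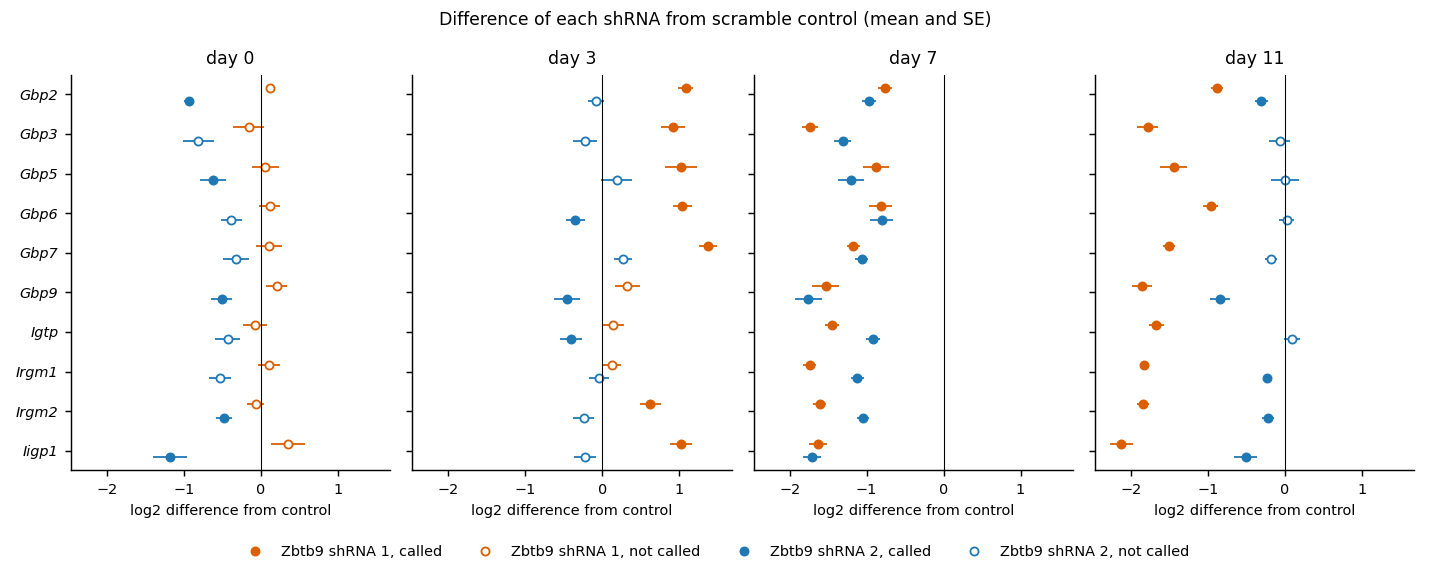
Difference of each shRNA from scramble control in log2 units for the 10 members, 1 panel a day. Points are differences of group means, bars are standard errors from limma, and filled points were called at an adjusted p under 0.05. At day 3, 7 filled shRNA 1 points lie above 0. At day 7 all points lie below 0, and at day 11 the shRNA 1 points lie from -2.13 to -0.88.

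At day 0, with shRNA 2, 5 members were called lower than control, against 10.2% of all genes: Gbp2, Gbp5, Gbp9, Irgm2 and Iigp1. Gbp2 had 1500.3, 1353, 1224 and 1364 normalized reads in control, 1527 and 1443 with shRNA 1 and 685 and 683 with shRNA 2, and its shRNA 2 difference was -0.93 ± 0.06 (SE, adjusted p = 2.08e-12). Iigp1 had 620.5, 436, 376 and 502 in control, 704 and 545 with shRNA 1 and 225 and 169.7 with shRNA 2 (-1.18 ± 0.22, SE, adjusted p = 0.0168). In both genes shRNA 1 overlapped or exceeded the controls and both shRNA 2 libraries lay below them. With shRNA 1 no member was called in limma, against 34.7% of all genes, with 0 at an unadjusted p under 0.05 and 0 with voom. Set against shRNA 1, shRNA 2 was called lower in 7 members, against 16.4% of all genes, from -0.41 (Irgm2) to -1.53 (Iigp1), and Gbp3, Gbp7 and Igtp were not called (-0.66, -0.43 and -0.36). The shRNA 2 count of 5 was 2 without shRNA 2 replicate 2. The count of 7 between shRNAs was 4 without either shRNA 1 library and 3 without shRNA 2 replicate 2. With shRNA 1, 2 members were called higher without control replicate 1. Adipocyte markers summed to 23400 to 23540 normalized reads with shRNA 1, 21950 to 22180 with shRNA 2 and 19720 to 20320 in control at day 0. Preadipocyte and fibroblast markers summed to 297900 to 309900, 338000 to 341600 and 362300 to 378000 in the same order, and leukocyte markers to 743.2 to 764.8, 809.5 to 827.4 and 890.2 to 982.6. Their part was not tested.

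At day 3, when control levels were lowest, 7 members were called higher with shRNA 1 than in control, against 20.6% of all genes. Gbp7 had 106, 158, 127 and 141 normalized reads in control, 383 and 393 with shRNA 1 and 165 and 164 with shRNA 2, and its shRNA 1 difference was 1.38 ± 0.12 (SE, adjusted p = 8.88e-12). Gbp2 had 203, 217, 214 and 197 in control, 495 and 453 with shRNA 1 and 218 and 173 with shRNA 2 (1.08 ± 0.10, SE, adjusted p = 1e-10). Both shRNA 1 libraries stood above all others in these genes. Gbp6 had 171, 158, 132 and 173 in control, 346 and 362 with shRNA 1 and 143 and 96.6 with shRNA 2, so that its shRNA 1 level was 223% of control. The effector Iigp1 had 41.0, 30.7, 42.9 and 31.9 in control, 96.5 and 101 with shRNA 1 and 29.0 and 26.4 with shRNA 2, with no overlap between the 3 groups. Differences of the 4 called members other than Gbp2, Gbp6 and Gbp7 were 0.92 for Gbp3, 1.02 for Gbp5, 0.63 for Irgm2 and 1.02 for Iigp1. The regulatory Irgm1 and Igtp did not follow: Irgm1 had 204, 169, 203 and 246 in control, 248 and 202 with shRNA 1 and 234 and 165 with shRNA 2, all overlapping. Differences with shRNA 1 were 0.12 ± 0.13 (SE, adjusted p = 0.491) for Irgm1, 0.14 ± 0.14 (SE, adjusted p = 0.48) for Igtp and 0.33 ± 0.16 (SE, adjusted p = 0.112) for Gbp9.

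With shRNA 2 at day 3, Gbp6 (-0.35), Gbp9 (-0.46) and Igtp (-0.40) were called lower than control, against 14.5% of all genes. Igtp had 81.0, 84.6, 83.7 and 58.5 normalized reads in control and 54.0 and 49.4 with shRNA 2, which lay below the controls. These 3 calls were lost without shRNA 2 replicate 2 (0 called) and with voom (0 called), and 1 was left without control replicate 1. Set against shRNA 1, shRNA 2 was called lower in 9 of 10 members, against 8.94% of all genes, from -0.54 (Igtp) to -1.39 (Gbp6). Irgm1 was the exception (-0.17 ± 0.15, SE, adjusted p = 0.489). Adipocyte markers summed to 42020 to 47750 normalized reads with shRNA 1, 50160 to 55700 with shRNA 2 and 25400 to 30590 in control at day 3. Preadipocyte and fibroblast markers summed to 135500 to 140200, 169800 to 177100 and 141000 to 158700 in the same order, and leukocyte markers to 500.8 to 503.6, 585.2 to 652.5 and 692.2 to 770.7. Their part was not tested.

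At day 7 all 10 members were called lower than control with each shRNA, where 24.3% (shRNA 1) and 22% (shRNA 2) of all genes were called lower. The median log2 difference was -1.49 with shRNA 1 and -1.09 with shRNA 2. The shRNAs still differed in 4 members that were higher with shRNA 2 than with shRNA 1, against 7.52% of all genes. Of these 3 were the regulatory IRGs: Irgm1 (0.62 ± 0.09, SE, adjusted p = 4.72e-05), Irgm2 (0.56 ± 0.09, SE, adjusted p = 0.000129) and Igtp (0.54 ± 0.10, SE, adjusted p = 0.000577). Gbp3 was the fourth (0.42, adjusted p = 0.0223), and it was not called in any of the 4 fits without 1 library. For Gbp6 the difference was 0.02 ± 0.17 (SE, adjusted p = 0.966), and for Iigp1 it was -0.08 ± 0.14 (SE, adjusted p = 0.753). At day 7 adipocyte markers summed to 195900 to 200700 normalized reads with shRNA 1 and 129700 to 156000 with shRNA 2, which did not overlap, preadipocyte and fibroblast markers to 200100 to 231600 and 223900 to 228800, and leukocyte markers to 379.5 to 482.6 and 467.6 to 530.8. Their part was not tested.

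At day 11 the shRNAs parted. With shRNA 1 all 10 members were called lower than control, against 22.2% of all genes, with a median of -1.73. Irgm1 had 2380.2, 2393, 2262 and 2224 normalized reads in control, 607 and 617 with shRNA 1 and 2023 and 1894 with shRNA 2. Gbp3 had 1891, 2025, 1485 and 1759 in control, 443 and 525 with shRNA 1 and 1954 and 1469 with shRNA 2. Igtp had 1347, 1353, 1242 and 1118 in control, 401 and 335 with shRNA 1 and 1522 and 1201 with shRNA 2. The median difference with shRNA 1 was -1.48 over the 6 GBPs and -1.84 over the 4 IRGs. In Gbp3, 1 shRNA 2 library lay among the controls and the other just below them, and in Igtp 1 lay among them and the other above, while shRNA 1 held 27.0% and 29.1% of the control mean. Iigp1 showed the lowest share with shRNA 1, 20.6% of control, with 1630.2, 1748, 1527 and 1225 in control, 316 and 315 with shRNA 1 and 1254 and 870.4 with shRNA 2.

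With shRNA 2 at day 11, 5 members were called lower than control, against 19.4% of all genes, most of them by little: Gbp2 (-0.31), Irgm1 (-0.23), Irgm2 (-0.22), Iigp1 (-0.51) and Gbp9 (-0.84). Gbp9 had the largest of these differences, with 834, 909, 748 and 758 normalized reads in control, 218 and 177 with shRNA 1 and 525 and 352 with shRNA 2. Its 3 groups did not overlap, which also held for Gbp2 and Irgm1. The shRNA 2 mean of Gbp9 was 54.0% of control, where that of its chromosome 5 neighbour Gbp6 was 103%, from 1852 and 1410.2 against 1633, 1538, 1560.3 and 1611 in control. Gbp5 had 206, 224, 210.0 and 176 in control, 70.5 and 43.2 with shRNA 1 and 272 and 152 with shRNA 2, whose 2 libraries lay on either side of the controls. The count of 5 was 1 without shRNA 2 replicate 2 and 3 without control replicate 3. Gbp2 had 1622, 1819, 1465 and 1742 in control, 913 and 831 with shRNA 1 and 1417 and 1242 with shRNA 2, both of the latter below every control. Against each other, shRNA 2 was called higher than shRNA 1 in all 10 members, against 11.6% of all genes, by 0.58 (Gbp2) to 1.76 (Igtp) with a median of 1.52, and in each of the 4 fits without 1 library. On that day adipocyte markers summed to 117600 to 140500 normalized reads with shRNA 1, 113600 to 125900 with shRNA 2 and 54960 to 64900 in control. Preadipocyte and fibroblast markers summed to 231500 to 273000 with shRNA 1, 312900 to 320600 with shRNA 2 and 302300 to 347400 in control, and leukocyte markers to 959.9 to 1113, 999 to 1025 and 814.4 to 960.5. The part of these markers was not tested. Zbtb9 had 8.17 and 19.3 with shRNA 1 and 2.13 and 4.25 with shRNA 2.

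A test of the change of the difference between shRNAs from one day to the next, added after the data were seen, gave 2 members called lower from day 0 to day 3 (Gbp6 and Gbp7, against 3.17% of all genes). It gave 8 called higher from day 3 to day 7 (all but Gbp5 and Gbp9, against 1.58%) and 10 called higher from day 7 to day 11 (against 3.83%). Gbp5 and Gbp9 moved by 0.51 ± 0.37 (SE, adjusted p = 0.532) and 0.56 ± 0.31 (SE, adjusted p = 0.367) in the middle interval. The last ran from 0.78 ± 0.15 (SE, Gbp2) to 1.77 ± 0.37 (Gbp5). The 2 calls between days 0 and 3 were lost without day 0 shRNA 1 replicate 2, day 0 shRNA 2 replicate 1, either day 3 shRNA 1 library or day 3 shRNA 2 replicate 2 (0 called each), and 1 was left without day 3 shRNA 2 replicate 1. With voom on rebuilt reads the counts for the first 2 intervals were 0 and 4.

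Genes of the pathway above the GTPases were counted from lists of ligands, receptors and transducers. Of 21 interferon genes 3 had a row (Ifnb1, Ifne and Ifnz). Their summed normalized reads were 0 to 9.71 in any library, and none entered the tests. Of 12 receptor, Janus kinase and STAT genes tested in the pooled knockdown at day 7, 5 were called lower, against 22.6% of all genes, and 1 higher, against 24.9%. The type I receptor chains were close to control: Ifnar1 had means of 2123 in control and 2046 in knockdown (-0.05 ± 0.06, SE, adjusted p = 0.508), and Ifnar2 differed by 0.01 ± 0.07 (SE, adjusted p = 0.889). Ifngr1, the ligand-binding chain for interferon gamma, was higher (5042 against 2903, 0.77 ± 0.05, SE, adjusted p = 8.94e-09), and Ifngr2 was lower (-0.21, adjusted p = 0.0162).

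Stat2 and Irf9, which bind the ISRE together, were called lower at day 7 (Stat2 by -1.47 and Irf9 by -1.08). At day 11, Stat2 had a mean of 3884 ± 130.4 normalized reads in control (SD, n = 4), 1120.1 with shRNA 1 and 3050.2 with shRNA 2, and the shRNAs differed by 1.38 ± 0.08 (SE, adjusted p = 3.7e-09). Irf9 differed between shRNAs by 0.98 on that day and was called. At day 3 with shRNA 1, neither Stat2 (0.08) nor Irf9 (0.06) was called. At day 0 with shRNA 2, Irf9 was called lower (-0.52).

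Of 6 interferon regulatory and related transcription factors tested at day 7, 3 were called lower in the pooled knockdown, against 22.6% of all genes. Irf7, which amplifies type I interferon production, was the largest (-1.60 ± 0.24, SE, adjusted p = 0.00103), with Irf5 (-0.46) and Irf2 (-0.32) after it. Irf1, which acts in the interferon gamma response, was not called (-0.17 ± 0.07, SE, adjusted p = 0.0622). At day 11, Irf7 had a mean of 2111 in control, 505 with shRNA 1 and 2003 with shRNA 2. Irf1 on that day was called lower with shRNA 1 (-0.21) and higher with shRNA 2 (0.40). Among 8 inhibitors and modifiers 4 were called lower at day 7, against 22.6% of all genes, and 2 higher, which is near the 24.9% of all genes. The lower ones included Isg15, a ubiquitin-like modifier (-1.92), Usp18, which removes Isg15 and restrains the type I receptor (-1.81), and Socs1, an inhibitor of Janus kinases (-0.82).

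**Figure D5:**
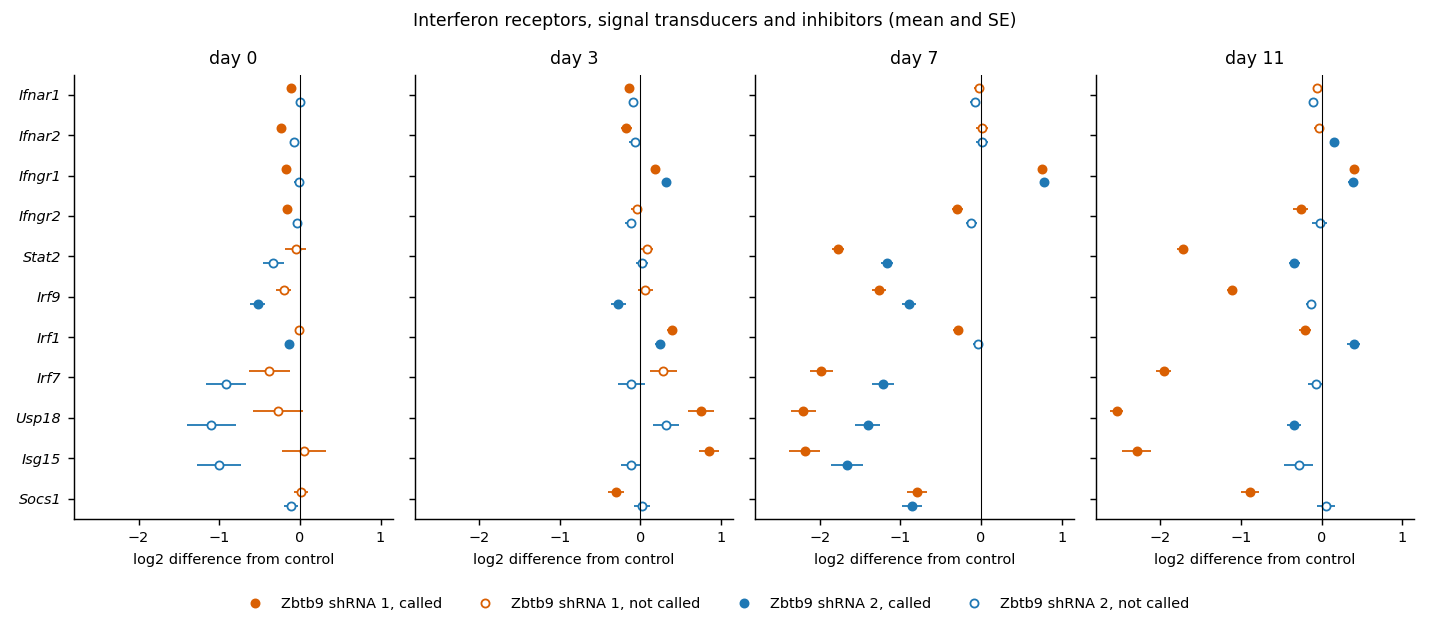
Difference of each shRNA from scramble control in log2 units for interferon receptor, signal transducer and inhibitor genes, 1 panel a day, drawn as for the members. Stat2, Irf9, Irf7, Usp18 and Isg15 lie below 0 with both shRNAs at day 7 and from -2.54 (Usp18) to -1.11 (Irf9) with shRNA 1 at day 11, while Ifnar1 and Ifnar2 run only from -0.24 to 0.15.

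Other GTPases of the families were looked up by symbol, 22 in all, of which 17 had a row and 12 were tested at day 7. There 11 of the 12 were called lower in the pooled knockdown, against 22.6% of all genes, with a median of -0.94. Mx1, a dynamin-like antiviral GTPase, and Mx2, its relative that is annotated as a polymorphic pseudogene, differed most (-2.33 and -2.08). Tgtp1 (-0.89) and Tgtp2 (-1.17), which are effector IRGs, and Gbp4 (-0.99) were lower as well. Gbp11, which lies beside Gbp6 on chromosome 5 and has the same annotation as Mx2, was not called at day 7 (-0.19 ± 0.14, SE, adjusted p = 0.297). Gbp11 was called higher with shRNA 1 at day 3 (1.16) and with shRNA 2 at day 11 (0.45), and with shRNA 1 at day 11 its mean was 422 against 407 in control (0.04 ± 0.10, SE, adjusted p = 0.773). At day 11, 12 of 13 tested were called lower with shRNA 1, against 22.2% of all genes, and 11 of 13 were called higher with shRNA 2 than with shRNA 1, against 11.6%. Mx2 at day 11 had means of 862 in control, 167 with shRNA 1 and 959.9 with shRNA 2.

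GBP and IRG proteins are loaded onto vacuoles with help from the autophagy conjugation system, and GBPs feed into inflammasomes. Of 13 genes of the loading machinery at day 7, 5 were called higher, against 24.9% of all genes, and 3 lower, near the 22.6% of all genes, in the pooled knockdown. Atg3, which attaches LC3-type proteins to lipid, was higher (0.37). Trim21, a ubiquitin ligase that is itself interferon-induced, and Sqstm1, an autophagy adaptor, were lower (-0.72 and -0.38). Of 5 inflammasome genes tested 4 were called lower, against 22.6% of all genes: Gsdmd, the pore-forming gasdermin (-0.83), Casp4, the caspase that senses lipopolysaccharide (-0.43), the cytokine gene Il18 (-0.43) and Aim2 (-0.40). Gsdmd was lower with each shRNA at day 11 too (-1.26 with shRNA 1 and -0.66 with shRNA 2).

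Of other interferon-induced families at day 7, 4 of 4 tested IFIT genes were called lower, with a median of -2.79, and 7 of 7 OAS genes, with a median of -1.42, against 22.6% of all genes. The largest in each were Ifit3 (-3.26), Ifit3b (-3.01) and Ifit1 (-2.57), and Oasl2 (-2.44), Oas2 (-1.81) and Oas1a (-1.71). At day 11, Ifit3 had means of 7681 in control, 519 with shRNA 1 and 5749.8 with shRNA 2. Over the means of the 12 groups, the genes whose log2 pattern was most like the members' mean pattern were Phf11d (Pearson r = 0.988), Rtp4 (0.988), Ifi44 (0.987), Xaf1 (0.986) and H2-Q4 (0.985). The members themselves ran from 0.573 (Gbp5) and 0.894 (Gbp6) to 0.988 (Gbp3) against that mean. These values describe 12 group means that share libraries and the fall at day 3, and no test was made of them.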

How the data were processed

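RNA-seq libraries of 32 3T3-L1 samples were compared by day, as grouped by the labels. Per the submitters' processing notes, the authors used TopHat2 2.1.0, Bowtie2 2.2.6, SAMtools 1.3.1 and HTSeq 0.6.1. The genome build, annotation, strand setting and normalization step are not given in the sources used here. The table deposited by the authors holds log2 values from -1.56 to 17.99, shrunk for low genes, although it is named as normalized counts, so the test was chosen for log2 values. Shrinkage understates differences of low genes such as Gbp5. Whole reads were rebuilt by inverting this scale: 98.7% of values of the 13571 genes tested in 1 fit of all 32 libraries, and 99.7% of member values, came within 0.1 of a whole read.

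Differences of log2 means were fitted with limma 3.58.1 (R 4.3.3, trended and robust variances) separately for the libraries of each day, for all control libraries when days were compared, and for all 32 libraries when differences were compared between days. Tests were two-sided. Genes entered with 2 to the power of the value at least 10 in 4 libraries, and Benjamini-Hochberg adjustment covered all genes tested. All percentages of called genes come from the same fits. Depth was 22280317 to 31073709 rebuilt reads in genes. The fit was tested on simulated data with the layout of the 4 daily knockdown comparisons (13149 to 13296 genes). It called 98% to 100.0% of changes of 1 and 84% to 89% of changes of 0.5 on the log2 scale. Of its calls 4.69% to 8.46% were false. In the simulation both shRNAs had the same mean, and no gene with few reads was changed. The real shRNAs differed from each other, so these shares do not carry over to the pooled comparisons. Tables were handled with Python 3.11.15 and pandas 2.3.3. IDs matched GENCODE M21 for 20521 of 20560 rows, and copies were sought with blastn 2.17.0.

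The members and all lists were chosen with earlier results of these data known. The text names all members, other GTPases of the families, and the receptor, Stat2, Irf1, Irf7 and Irf9 genes. It also names the 3 tested genes of each pathway list with the largest absolute difference at day 7. Results on 1 further gene are not reported here, and the remaining family GTPases are given as counts. Aim2 and the named values of Gbp11 were picked after their values were seen. Alternatives were another filter or none, rescaled totals, constant variances, log2 of rebuilt normalized reads plus 1, voom on rebuilt reads, a replicate block, 1 fit of all libraries, separate shRNA groups, and leaving out each library.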

Additional observations from a re-analysis of the deposited data

Results flagged for a closer look

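Of 80 groups of 4 libraries examined for a library far from the rest, 2 stood out, and chance alone marks about 1 group in 20. Gbp5 in knockdown cells at day 7 had its highest library, shRNA 1 replicate 1, at a deposited log2 value of 5.53, with the next at 5.01. Igtp in control cells at day 3 had its lowest library, replicate 4, at 6.32, with the next at 6.66.

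The difference between the shRNAs was tested directly and was called for 7 members before induction (day 0), for 9 members on day 3, for 4 on day 7 and for 10 on day 11. The shares of all genes called in the same direction were 16.4%, 8.94%, 7.52% and 11.6%. The change of the pooled knockdown difference from day 3 to day 7 was called for 9 members, against 10.2% of all genes. The change of the difference between shRNAs was called for 2 members from day 0 to day 3, 8 from day 3 to day 7 and 10 from day 7 to day 11, against 3.17%, 1.58% and 3.83% of all genes.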

How the results depend on the processing

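No difference of a member that was called, with all libraries or under an alternative, changed sign. Differences called in neither fit did: 48 values with 1 library left out (up to 0.34 in size) and 12 under the other alternatives (up to 0.73), among them Gbp5 with shRNA 2 at day 11. Of 2080 single-member values with 1 library left out, 1959 kept their side of the threshold, 105 lost the call and 16 gained it. Of 1910 values under the other alternatives these numbers were 1809, 55 and 46. The number of members called moved by over 1.5 times as follows. With the shRNAs as separate groups, the pooled knockdown count went from 0 to 1 at day 0, from 0 to 6 at day 3 and from 2 to 10 at day 11. In 1 fit of all 32 libraries it went from 0 to 1 at day 3 and from 2 to 7 at day 11. For shRNA 2 against control at day 3 the count of 3 became 0 with no filter, 1 with constant variances and 0 with voom on rebuilt reads. With voom the change of the knockdown difference from day 3 to 7 went from 9 to 3, and the change between shRNAs from 2 to 0 (day 0 to 3) and 8 to 4 (day 3 to 7). With constant variances the 2 became 1.

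With 1 library left out, the ranges were 0 to 2 for shRNA 1 at day 0, 2 to 6 for shRNA 2 at day 0, 3 to 5 for shRNA 2 against shRNA 1 at day 0, 0 to 1 for pooled knockdown at day 3, 0 to 2 for shRNA 2 at day 3, 1 to 7 for pooled knockdown at day 11 and 1 to 6 for shRNA 2 at day 11. They were 0 to 1 for the change of the knockdown difference from day 0 to 3 and 0 to 2 for that between shRNAs. The causes were not tested. Where a group was left with 1 library, it was assumed to vary like the other groups.

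With the replicate number as a replicate block, the counts went from 0 to 3 (shRNA 1, day 0), 5 to 10 (shRNA 2, day 0) and 2 to 0 (pooled knockdown, day 11). Whether the numbers pair the libraries cannot be told from these values. Of 24 same-numbered pairs, 3 had deviations correlated above 0.1, all at day 11 (0.215, 0.142 and 0.126). The others ran from -0.00519 to 0.0999. The 24 are not separate checks, because 2 groups of 2 libraries give the same value for both numbers. A shared effect of the replicate number was not tested further.

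When libraries were rescaled to equal totals, the share of higher among all called genes moved by over 10 points in 9 of 27 comparisons. In 1 of them, control day 3 against day 0 (50.1% to 38.6%), the median of all genes shifted by over 0.1 (-0.13). The other 8 shares were 25.1% and 43.3% rescaled for pooled knockdown at day 0, 42% and 57.0% for shRNA 2 at day 0, 53.2% and 42.5% for shRNA 1 at day 7, and 45.8% and 62.0% for shRNA 2 against shRNA 1 at day 7. For the change of the knockdown difference they were 56.2% and 42.4% (day 0 to 3) and 55.9% and 45.3% (day 3 to 7), and for the change between shRNAs 34.7% and 60% (day 3 to 7) and 62.4% and 48.2% (day 7 to 11). Members with under 30 reads, Gbp5 at days 0 and 3 above all, are limited by depth.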
